A study of Homo sapiens with 9 samples.

Results

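Cultures of GM12878 cells exposed to sulforaphane for 8 h were compared with untreated cultures across all transcript clusters of the array. The comparison takes 3 arrays of 8 h cultures and 3 arrays of untreated cultures, chosen by their titles, which are 6 of the 9 arrays of the series. GM12878 is a B-lymphoblastoid line from a single donor, transformed with Epstein-Barr virus. Each culture held 900000 cells per ml in medium with 15% heat-inactivated serum. Treated cultures received 10 µM D,L-sulforaphane, the racemic form of an isothiocyanate found in cruciferous vegetables, and the untreated cultures were taken at 0 h. The treatment protocol names 0.1% DMSO as the vehicle, but it does not say whether the 0 h cultures received it, and cultures kept for 8 h without sulforaphane were not analysed here. Time in culture and sulforaphane therefore cannot be told apart in any difference below, nor can the vehicle if the 0 h cultures lacked it. The triplicate cultures came from 1 line, so the p-values measure the spread between cultures of that line.

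Isothiocyanates react with cysteines of KEAP1, the adaptor that marks the transcription factor NRF2 for degradation. Released NRF2 pairs with small MAF proteins at antioxidant response elements and drives genes of haem breakdown, iron storage, glutathione and NADPH supply, while the repressor BACH1 holds some of the same sites. Electrophiles also trigger the heat shock factor HSF1 when they damage proteins, and the gene lists below follow these pathways first and then growth, death, immune signalling and metabolism.

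Values are log2 RMA signals. A difference is the mean at 8 h minus the mean of the untreated arrays (n = 3 arrays per group). It is given with the moderated standard error of the limma fit (eBayes) over all arrays of the series. This error pools the spread of the untreated, 8 h and 24 h arrays, whose median SDs were 0.15, 0.0912 and 0.0919. Where the untreated values of a gene scatter widely, it can be smaller than the arrays compared alone would give. The mean signal of an array lay between 7.97 and 8.14. Arrays are numbered by the replicate in their title. Untreated array 2 stood apart, with a first-component score of 54.45 against -29.95 to 16.39 on the other 8 arrays, and it often held the lowest untreated value. The cultures carried B-cell markers: MS4A1, the surface protein CD20, read 12.91, 13.11 and 13.11 untreated, CD79A of the B-cell receptor 12.82, 12.80 and 12.90, and the B-cell factor PAX5 10.97, 11.12 and 10.99. Among markers of other cells, 0 of 20 T and NK cell, 0 of 12 myeloid and 1 of 13 fibroblast and epithelial genes were called as changed. Of all named genes 0.646% were called, and a call does not measure presence.

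Calls rest on an adjusted p below 0.05 (limma, Benjamini-Hochberg over 22011 clusters). After 8 h, 131 clusters were called, which is 0.595% of those tested, with 59 higher (0.268%) and 72 lower (0.327%). Among 14232 named genes 92 were called (0.646%), 30 higher (0.211%) and 62 lower (0.436%). Most changes were small. The median size of a called difference was 0.65 on the log2 scale, 80 of 131 reached 1.5-fold and 18 reached 2-fold, 11 of them higher. The calls also lay at different levels: among the brightest 25% of clusters 29 were higher and 19 lower, and among the next 25% 12 were higher and 34 lower. An unadjusted p below 0.05 was found for 3328 clusters. RNA came from whole cultures, so fewer cells in a state and less RNA per cell cannot be told apart.

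**Figure D1:**
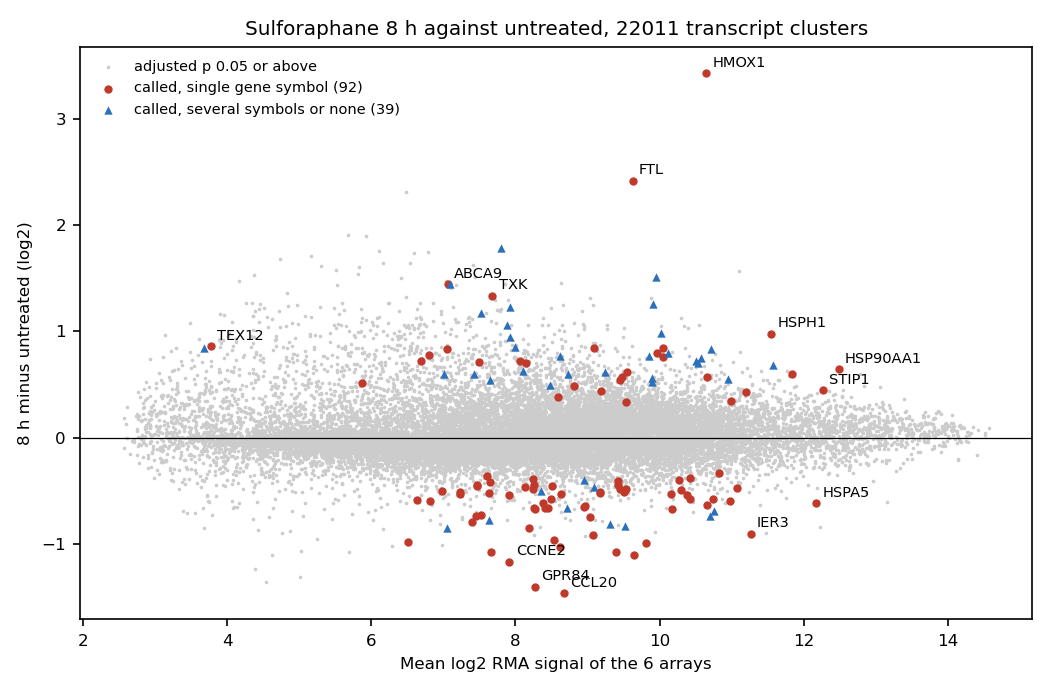
Difference between 8 h and untreated arrays (log2, vertical axis) against the mean log2 RMA signal of the 6 arrays (horizontal axis) for 22011 transcript clusters. Red circles are the 92 called clusters with a single gene symbol, blue triangles the 39 other called clusters, and grey points the rest. HMOX1 (3.43) and FTL (2.42) lie far above the other called clusters, and CCL20 (-1.46) and GPR84 (-1.40) are the lowest called genes.

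How many clusters passed depended on which arrays entered the fit. Without untreated array 1 the count was 654, without untreated array 2 it was 291, and without untreated array 3 it was 9. Leaving out 8 h array 1, 2 or 3 gave 21, 83 and 27, and leaving out 24 h array 1, 2 or 3, which enter through the shared spread, gave 76, 43 and 58. Of the 92 called genes, 92, 87 and 8 still passed without untreated arrays 1, 2 and 3, and 15, 46 and 19 without 8 h arrays 1, 2 and 3. Without 24 h arrays 1, 2 and 3 the numbers were 47, 29 and 37. In 0 of the 92 did the 3 arrays at 8 h overlap the 3 untreated arrays, which the choice of genes by a small p favours. Without overlap, leaving out 1 array cannot reverse a difference, so the same direction in every one of these fits was fixed in advance. HMOX1, FTL, COL24A1, GNG2, ALDH1B1, SEPTIN3, IER3 and GPR84 passed in all 9 fits without 1 array. In a limma fit of only the 6 arrays compared, 87 of the 92 called genes did not pass. HMOX1, FTL, SEPTIN3, FSTL3 and GPR84 did. COL24A1, GNG2, ALDH1B1 and IER3 were among the genes that did not (adjusted p = 0.0579, 0.0761, 0.0761 and 0.0617). The medians of 12 gene lists below, all between 0.00 and 0.03, turned negative when arrays were centred or quantile-normalized: haem and iron, glutathione, thioredoxin, ATF4, BCL2, mitosis, NF-kB, viral latency, histone deacetylases, DNA methylation, aryl hydrocarbon receptor and ABCA transporters. Beside each gene list with called members below, the arrays without which a call was lost are named. Losses in the fit of only the 6 arrays compared are not repeated there. The genes in no list are counted together at the end. Among all named genes the groups were apart upward in 6.58% and downward in 10.3%, and counts of members apart are to be read against these shares.

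**Figure D2:**
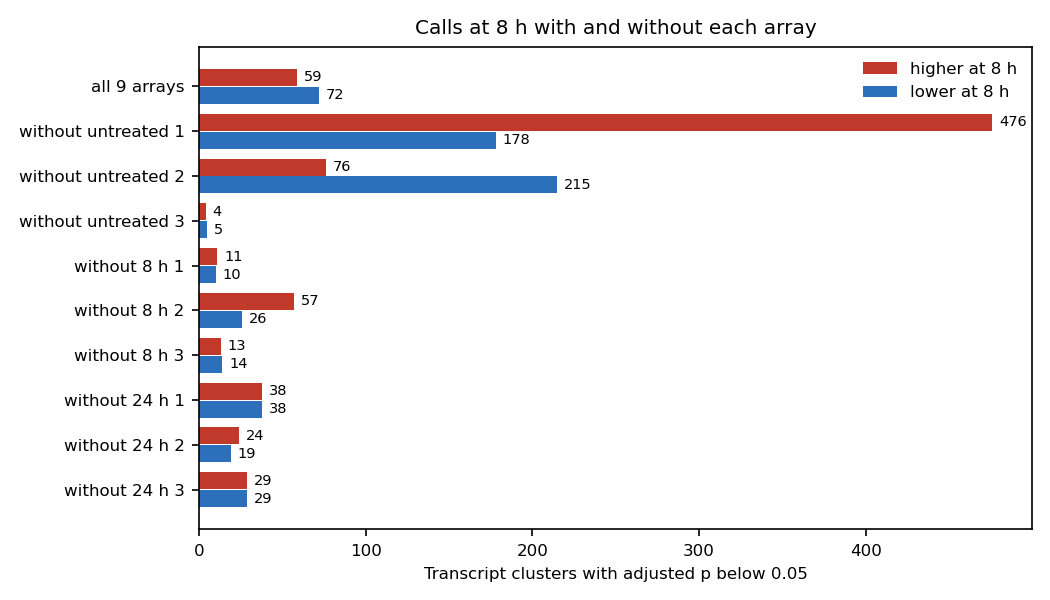
Number of transcript clusters with an adjusted p below 0.05 (horizontal axis, from 0) at 8 h against untreated, with all 9 arrays and without each array in turn (vertical axis). Red bars are clusters higher at 8 h and blue bars clusters lower. The counts ran from 4 higher and 5 lower without untreated array 3 to 476 higher without untreated array 1 and 215 lower without untreated array 2.

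The haem and iron genes held the largest rises of the comparison. Of 24 measured members 2 rose, 0 fell and 22 did not pass, and the list median was 0.02 beside -0.04 over all named genes. Without untreated array 2 the median was -0.05 and 1 member was called lower. HMOX1 (cluster 3944129) encodes the oxygenase that opens the haem ring. It read 8.77, 8.99 and 9.03 on the untreated arrays and 12.36, 12.28 and 12.45 at 8 h, so that every treated value lay more than 3 log2 units above every untreated value. The rise was 3.43 ± 0.09, or 10.8-fold (adjusted p = 3.46e-06). FTL (cluster 3838094), the ferritin light chain that stores the freed iron, went from 8.41, 8.30 and 8.54 to 10.87, 10.66 and 10.98, again without overlap. It rose by 2.42 ± 0.10, or 5.35-fold (adjusted p = 0.000112). Both genes passed without any 1 of the 9 arrays. SLC48A1, a haem transporter, read 7.99, 7.98 and 7.98 untreated and 8.55, 8.33 and 8.47 at 8 h, a difference of 0.46 ± 0.08 that just missed the threshold (adjusted p = 0.0503). HMOX2, the constitutive haem oxygenase, lay at 10.23, 10.24 and 10.10 untreated and 9.98, 9.77 and 10.02 at 8 h, without overlap (difference -0.27 ± 0.08, adjusted p = 0.185). Differences of BLVRA, which reduces the biliverdin that HMOX1 makes (-0.28 ± 0.13, adjusted p = 0.371), and of TFRC, the transferrin receptor (0.34 ± 0.18, adjusted p = 0.404), did not pass.

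In the thioredoxin system 1 of 15 members rose and 0 fell (median 0.03, and -0.02 without untreated array 2). TXNRD1 (cluster 3429460), the selenium-containing reductase that recharges thioredoxin, read 8.84, 8.54 and 8.62 untreated and 9.58, 9.28 and 9.67 at 8 h. The groups did not overlap, and TXNRD1 rose by 0.84 ± 0.11, or 1.79-fold (adjusted p = 0.0225). The call was lost without untreated array 3, 8 h array 1 or 3, or any 24 h array (the 3 arrays at 24 h shared the value 9.22), and without untreated array 2 the list held 2 rises. SRXN1, which repairs overoxidised peroxiredoxins, differed by 0.35 ± 0.09 without overlap, but did not pass (adjusted p = 0.137). EID3, a subunit of the SMC5/6 complex, lies within TXNRD1 in RefSeq, so its signal is uncertain as that of a separate gene. EID3 read 7.64, 7.68 and 7.78 untreated and 8.51, 8.21 and 8.54 at 8 h and rose by 0.72 ± 0.09 (adjusted p = 0.0193). It too was without overlap, and passed in 4 of the 9 fits without 1 array. The promoter window of TXNRD1 is shown because it holds a pair of matches to the core of the antioxidant response element, TGACNNNGC, in capitals here and read on both strands. It is the RefSeq window chr12:104215529-104215808 (GRCh38.p14, plus strand, 250 bases before to 30 after the start, the one of its 2 windows with more matches), and the matches begin at -99 and -8.
TXNRD1: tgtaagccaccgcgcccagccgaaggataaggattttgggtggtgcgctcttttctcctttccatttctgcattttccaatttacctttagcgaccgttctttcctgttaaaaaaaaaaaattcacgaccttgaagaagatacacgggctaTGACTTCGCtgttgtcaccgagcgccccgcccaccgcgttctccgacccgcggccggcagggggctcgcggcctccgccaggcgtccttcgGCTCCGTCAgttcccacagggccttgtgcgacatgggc
The same core was found in the windows of 5 of 25 risen and 5 of 39 fallen genes with a window, beside 18.7% of 11386 tested genes. The 5 risen genes were TXNRD1, PIR, BAX, HINFP and MAP1LC3B.

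Of 13 measured genes in a list of NRF2 regulators and linked genes, 1 rose and 0 fell (median 0.16, and 0.03 without untreated array 2). The called gene was PIR, and the regulators KEAP1, BTRC and BACH1 did not pass. PIR (cluster 4000560), or pirin, an iron-binding nuclear protein, was at 6.74, 6.49 and 6.65 untreated and at 7.48, 7.45 and 7.47 after 8 h. The treated values lay within 0.03 of each other and above all untreated values, and PIR rose by 0.84 ± 0.08, or 1.79-fold (adjusted p = 0.0066). Its call was lost without untreated array 3. KEAP1 itself read 9.23, 8.98 and 9.23 and then 9.49, 9.27 and 9.50, which did not overlap but did not pass (difference 0.27 ± 0.10, adjusted p = 0.274). BTRC, the adaptor of a second ligase that degrades NRF2, differed by 0.39 ± 0.10 (adjusted p = 0.119). The repressor BACH1 differed by 0.22 ± 0.10 with overlapping groups (adjusted p = 0.35).

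Glutathione genes gave large differences that did not pass, and none of the 16 measured members was called. Their median was 0.02. The groups were apart in 5 members upward and in 1 downward, beside 6.58% higher and 10.3% lower among all named genes. SLC7A11, the cystine importer, read 8.70, 7.83 and 8.68 untreated and 9.58, 9.39 and 9.45 at 8 h. Its difference was 1.07 ± 0.23 (adjusted p = 0.0804) and became 0.78 without untreated array 2, whose 7.83 was the lowest value. GCLC, the catalytic subunit of the rate-limiting enzyme, read 8.22, 7.58 and 8.08 and then 8.80, 8.74 and 8.65 (difference 0.77 ± 0.18, adjusted p = 0.101). GCLM, its modifier subunit, showed the widest untreated spread of these genes, with 7.28, 6.09 and 7.19, against 7.65, 7.51 and 7.59 at 8 h. Its difference of 0.73 ± 0.29 (adjusted p = 0.296) became 0.35 without untreated array 2. SLC3A2, the heavy chain that carries SLC7A11 to the membrane, differed by 0.37 ± 0.08 (adjusted p = 0.0842), and GSR, which reduces oxidised glutathione, by 0.35 ± 0.11 (adjusted p = 0.198).

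Neither the 15 measured NADPH enzymes (of 18 listed) nor the 25 measured genes of conjugation and efflux (of 39 listed) held a called member (medians -0.02 and -0.05). Listed genes without a cluster of a single symbol were not read, here and in the other lists. A list without a call therefore does not speak for them. ME1, the cytosolic malic enzyme, read 8.44, 7.12 and 8.12 and then 9.10, 9.19 and 9.03. The groups did not overlap, but the untreated values spanned more than 1 log2 unit, and the difference of 1.22 ± 0.31 did not pass (adjusted p = 0.125, difference 0.83 without untreated array 2). MTHFD1, a folate enzyme, read 10.70, 10.65 and 10.57 and then 10.23, 9.99 and 10.27, a difference of -0.47 ± 0.10 (adjusted p = 0.0858). Among conjugating enzymes, CBR1, a carbonyl reductase, differed by -0.39 ± 0.09 (adjusted p = 0.0944), and MGST1, a membrane-bound glutathione transferase, by 0.36 ± 0.10 (adjusted p = 0.165).

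**Figure D3:**
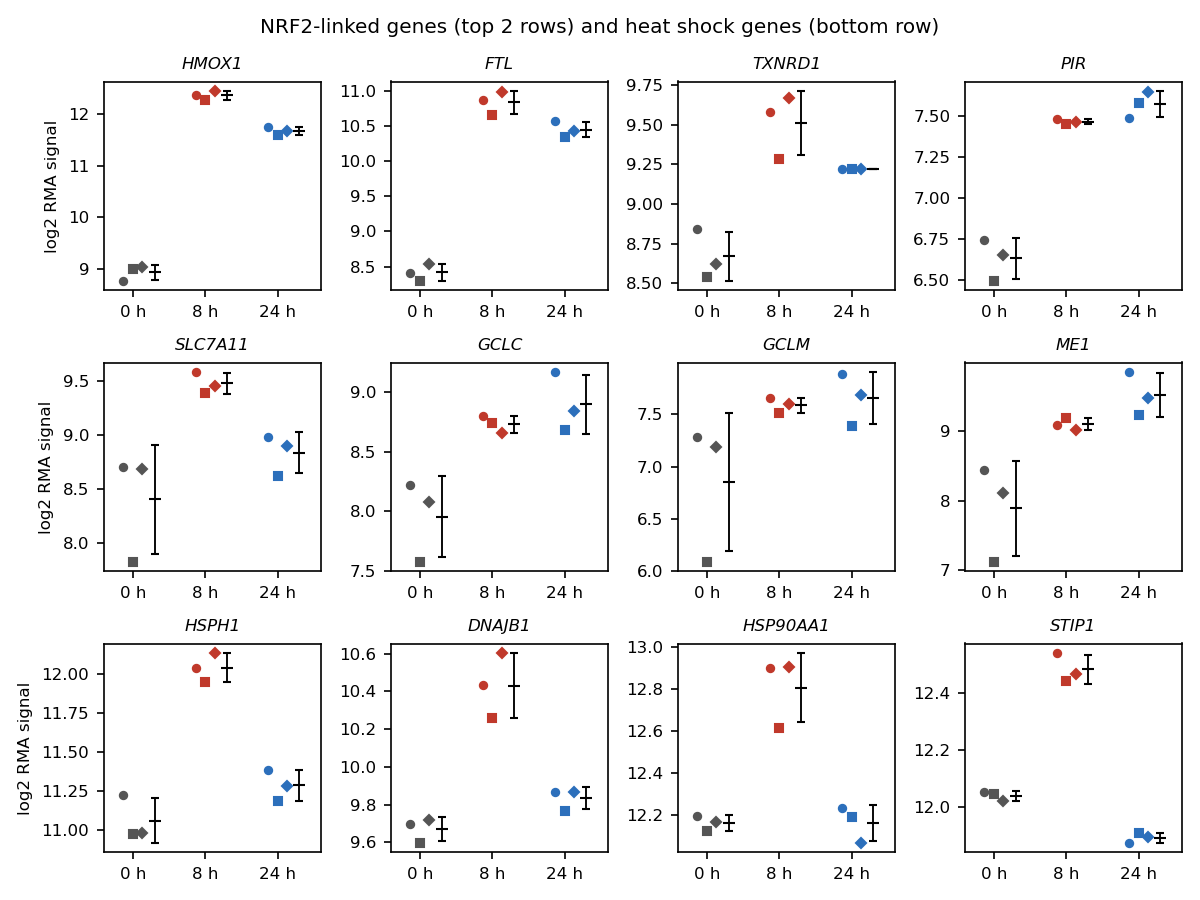
Log2 RMA signal (vertical axes, scaled per gene) of 12 genes at 0 h (grey), 8 h (red) and 24 h (blue); circles, squares and diamonds are replicates 1, 2 and 3, and the bars beside them the mean ± SD of 3 arrays. In SLC7A11, GCLC, GCLM and ME1 untreated array 2 (grey square) lies far below the other untreated arrays, while HMOX1, FTL, PIR and STIP1 have tight groups; the 4 heat shock genes are lower at 24 h than at 8 h.

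Among chaperones, 5 genes of the cytosolic heat shock response rose. In the HSP70 machine 3 of 26 members rose and 0 fell, the median was 0.19 (0.10 without untreated array 2, 0.12 without 8 h array 1 and 0.28 without untreated array 1), and the groups were apart upward in 7 (26.9%, beside 6.58% of all named genes) and downward in 0. HSPH1 (cluster 3508330), the HSP110 exchange factor that reactivates aggregated proteins with HSP70, read 11.23, 10.98 and 10.98 untreated and 12.04, 11.95 and 12.13 at 8 h. Its groups lay well apart, and it rose by 0.98 ± 0.09, or 1.97-fold (adjusted p = 0.0066). DNAJB1 (cluster 3852783), the J-domain partner of HSP70, read 9.70, 9.60 and 9.72 and then 10.43, 10.26 and 10.60. DNAJB1 rose by 0.76 ± 0.09 (adjusted p = 0.0167) without overlap. BAG3, which hands HSP70 clients to autophagy, read 8.52, 8.61 and 8.59 and then 9.07, 8.95 and 9.14 and rose by 0.48 ± 0.06 (adjusted p = 0.0211). The constitutive HSPA8 differed by 0.04 ± 0.06, with overlapping groups (adjusted p = 0.736). DNAJB4, another J-domain protein, read 8.47, 7.53 and 8.11 and then 9.27, 9.19 and 9.39, a difference of 1.25 ± 0.28 that did not pass (adjusted p = 0.0938). Of the 3 calls, 2 were left without any 1 of the 24 h arrays, 1 without 8 h array 1 or 3, and 0 without untreated array 3.

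Of 18 measured HSP90, chaperonin and small heat shock genes, 2 rose and 0 fell (median 0.17, and 0.11 without untreated array 2). HSP90AA1 (cluster 3580179), the inducible cytosolic HSP90, read 12.19, 12.12 and 12.16 untreated and 12.90, 12.62 and 12.90 at 8 h. HSP90AA1 rose by 0.65 ± 0.09, or 1.57-fold (adjusted p = 0.0257). STIP1 (cluster 3334224), the scaffold that passes clients from HSP70 to HSP90, read 12.05, 12.04 and 12.02 and then 12.54, 12.44 and 12.47, with both groups tight and apart. It rose by 0.44 ± 0.05 (adjusted p = 0.0167). FKBP4, an HSP90 co-chaperone of steroid receptors, differed by 0.46 ± 0.08 (adjusted p = 0.0513). CHORDC1, another HSP90 partner, read 8.78, 7.27 and 7.68 and then 9.13, 9.26 and 9.70; its difference of 1.45 ± 0.37 did not pass (adjusted p = 0.123). Of the 2 calls, 1 was left without 24 h array 1 or 3, and without untreated array 1 the list held 4 rises. Neither call was left without untreated array 3, 8 h array 1 or 3, or 24 h array 2. The window of HSP90AA1 is shown for its heat shock element pairs, GAANNTTC or TTCNNGAA, in capitals and searched on both strands. It is the RefSeq window chr14:102087015-102087294 (GRCh38.p14, minus strand, the one of 2 with more matches), with matches that begin at -88, -83 and -68, the first 2 overlapping.
HSP90AA1: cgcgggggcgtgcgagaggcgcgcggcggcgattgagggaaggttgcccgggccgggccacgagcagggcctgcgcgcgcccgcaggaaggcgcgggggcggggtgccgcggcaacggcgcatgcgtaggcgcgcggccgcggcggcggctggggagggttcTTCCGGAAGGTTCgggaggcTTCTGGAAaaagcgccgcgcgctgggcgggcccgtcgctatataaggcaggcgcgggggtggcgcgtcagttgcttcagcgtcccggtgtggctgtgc
Windows of 7 of 25 risen and 4 of 39 fallen genes held such a pair, beside 14.9% of tested genes. DNAJB1, STIP1, FTL, TXK, BCO2 and GPR135 were the other risen genes with a match.

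Other stress lists held few calls. None of 38 proteasome genes was called (median 0.05, and -0.06 without untreated array 2), and PSMD10, a regulatory-particle assembly factor, had the smallest p with a difference of 0.30 ± 0.09 (adjusted p = 0.169). In the endoplasmic reticulum list 0 of 29 rose and 1 fell, with a median of -0.08 that was 0.02 without untreated array 1, -0.17 without untreated array 2 and -0.03 without untreated array 3 or 8 h array 3. HSPA5 (cluster 3225398), the HSP70 of the reticulum and the main marker of its unfolded protein response, read 12.58, 12.45 and 12.41 untreated and 11.90, 11.76 and 11.92 at 8 h. All treated values lay below all untreated values, and HSPA5 fell by 0.62 ± 0.08, or 1.54-fold (adjusted p = 0.0179). That call was lost without untreated array 3, 8 h array 1 or 3, or 24 h array 2, and the list held 2 falls without untreated array 1 and 3 without untreated array 2. Other secretory chaperones did not pass, with differences of -0.41 ± 0.08 for MANF, -0.28 ± 0.07 for CRELD2 and -0.28 ± 0.07 for calreticulin, CALR (adjusted p = 0.0697, 0.109 and 0.126). None of 32 ATF4 targets (median 0.02) and none of 7 metallothionein and zinc genes (median -0.04) was called. DDIT3, the factor CHOP, differed by 0.03 ± 0.08 with overlapping groups (adjusted p = 0.864), and ATF3 by 0.16 ± 0.10 (adjusted p = 0.48). PPP1R15A, which restarts translation after stress, differed by 0.30 ± 0.08 (adjusted p = 0.123).

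Autophagy and lysosome genes had a median of 0.19 (0.13 without untreated array 2), with 2 of 33 higher and 0 lower. The groups were apart upward in 14 members (42.4%, beside 6.58% of all named genes) and downward in 1 (3.03%, beside 10.3%). MAP1LC3B (cluster 3672830), the LC3 protein of autophagosome membranes, read 11.59, 11.59 and 11.43 untreated and 12.25, 12.03 and 12.13 at 8 h and rose by 0.60 ± 0.08 (adjusted p = 0.0186). TFE3, a transcription factor of lysosome genes, read 9.17, 9.14 and 9.25 and then 9.85, 9.61 and 9.82 and rose by 0.57 ± 0.08 (adjusted p = 0.0211). Neither gene overlapped between groups. Their calls were both lost without untreated array 3, 8 h array 1 or 3, or 24 h array 2 or 3, and 1 was lost without 24 h array 1. NBR1, an autophagy receptor, read 9.55, 9.25 and 9.38 and then 9.98, 9.82 and 10.03, a difference of 0.55 ± 0.10 (adjusted p = 0.059).

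Transcripts raised by p53 showed the largest upward median of the 45 lists, 0.33, with 3 of 30 higher, 0 lower and 27 that did not pass. The groups were apart upward in 19 members (63.3%, beside 6.58% of all named genes) and downward in 0 (beside 10.3%). The list mean read 9.80, 9.45 and 9.74 on untreated arrays 1, 2 and 3 and 9.92 to 10.03 at 8 h, and the median was 0.18 without untreated array 2. BAX (cluster 3838067), which opens the mitochondrial membrane in apoptosis, read 10.93, 11.03 and 10.97 untreated and 11.43, 11.33 and 11.47 at 8 h. BAX rose by 0.43 ± 0.06 (adjusted p = 0.023); its 3 arrays at 24 h shared the value 11.24. TNFRSF10D (cluster 3127745), a decoy receptor of the death ligand TRAIL, read 9.53, 9.57 and 9.61 and then 10.49, 10.04 and 10.56, rising by 0.79 ± 0.13 (adjusted p = 0.0427). ABHD4, a lipid hydrolase, read 9.64, 9.47 and 9.77 and then 10.61, 10.16 and 10.64 and rose by 0.84 ± 0.14 (adjusted p = 0.0459). In each of these genes 8 h array 2 was the lowest treated value, above all untreated values. Further targets did not pass: CDKN1A, the p21 inhibitor of cyclin-dependent kinases, differed by 0.37 ± 0.14 (adjusted p = 0.268) and MDM2, the ligase of p53, by 0.11 ± 0.09 (adjusted p = 0.581). Of the 3 calls, 1 was left without untreated array 2, and 0 without untreated array 3, 8 h array 1 or 3, or any 24 h array. Without untreated array 1 the list held 6 rises.

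The ligand TRAIL moved the other way from its decoy receptor. TNFSF10 (cluster 2705706), which encodes TRAIL, read 7.27, 6.60 and 7.13 untreated and 5.93, 6.17 and 5.95 at 8 h. The groups lay apart although the untreated arrays spanned 0.67, and TNFSF10 fell by 0.98 ± 0.16 (adjusted p = 0.0486). The death receptor list thus held 1 rise, TNFRSF10D, and 1 fall among 20 members (median 0.09, and 0.00 without untreated array 2). Of those calls 1 was left without untreated array 2 or 8 h array 2, and 0 without untreated array 3, 8 h array 1 or 3, or any 24 h array, while 2 rises were called without untreated array 1. TNFRSF10B, a signalling TRAIL receptor, differed by 0.34 ± 0.08 (adjusted p = 0.0939), FAS by 0.40 ± 0.11 (adjusted p = 0.158) and the adaptor TRADD by -0.35 ± 0.07 (adjusted p = 0.0715). In the BCL2 family BAX was the 1 called gene of 18, and the survival factor BCL2 differed by 0.36 ± 0.09 (adjusted p = 0.112) and the BH3-only BID by -0.39 ± 0.09 (adjusted p = 0.101). MLKL, the effector of necroptosis and a gene of no list, fell by 0.52 ± 0.08 (adjusted p = 0.0459) and passed in 2 of the 9 fits without 1 array.

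CCNE2, CDC6 and FAM111B, which act in S-phase entry and DNA synthesis, were the falls among cell-cycle lists, which held no rise. In the G1/S list 0 of 29 rose and 1 fell (median -0.12, and -0.18 without untreated array 2). Of its members 13 (44.8%, beside 10.3% of all named genes) were apart downward and 2 (6.9%, beside 6.58%) upward. CCNE2 (cluster 3145107), the cyclin that drives CDK2 at the start of S phase, read 8.82, 8.21 and 8.47 untreated and 7.40, 7.15 and 7.44 at 8 h. Its groups were far apart, and CCNE2 fell by 1.17 ± 0.15, or 2.25-fold (adjusted p = 0.0193). E2F8, a repressing E2F factor and itself an E2F target, read 9.17, 8.98 and 9.03 and then 8.36, 8.14 and 8.42, with a difference of -0.75 ± 0.14 (adjusted p = 0.0667). CDK2 differed by -0.40 ± 0.08 (adjusted p = 0.0768) and the cyclin CCND3 by -0.42 ± 0.09 (adjusted p = 0.0798). MYC read 11.45, 11.15 and 11.55 untreated and 11.97, 11.998 and 11.79 at 8 h, a difference of 0.54 ± 0.11 that did not pass (adjusted p = 0.0804). The CCNE2 call was lost without untreated array 3, any 8 h array, or 24 h array 2 or 3. The list held 2 falls without untreated array 1 or 24 h array 1, and 3 without untreated array 2.

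Of 20 genes that load the replicative helicase, 0 rose and 1 fell (median -0.22). The groups were apart downward in 9 (45%, beside 10.3% of all named genes) and upward in 0 (beside 6.58%). CDC6 (cluster 3720896), which recruits the MCM helicase to origins, read 9.39, 8.96 and 9.05 untreated and 8.18, 7.94 and 8.19 at 8 h. CDC6 fell by 1.03 ± 0.13, or 2.05-fold (adjusted p = 0.0179), without overlap. Among the helicase subunits, which did not pass, MCM4 differed by -0.67 ± 0.13, MCM6 by -0.61 ± 0.15, MCM3 by -0.61 ± 0.17 and MCM2 by -0.40 ± 0.10 (adjusted p = 0.0667, 0.115, 0.149 and 0.133). The replisome held no called gene among 32, but it had the lowest median of the 45 lists, -0.37 (-0.44 without untreated array 2). Of its members 21 (65.6%, beside 10.3% of all named genes) were apart downward and 0 (beside 6.58%) upward. UHRF1, which carries DNA methylation through replication, read 9.88, 9.81 and 9.82 and then 9.13, 8.75 and 9.18; its difference of -0.82 ± 0.14 did not pass (adjusted p = 0.0568). CDC45, part of the active helicase, read 9.68, 9.67 and 9.71 and then 9.22, 9.01 and 9.21 (difference -0.54 ± 0.10, adjusted p = 0.0634). CHAF1B, which places histones behind the fork, differed by -0.61 ± 0.13 (adjusted p = 0.0752). The CDC6 call was lost without untreated array 3, any 8 h array or 24 h array 2. Without untreated array 2, 6 licensing and 4 replisome genes were called lower. The promoter window of CDC6 is shown for the E2F core TTTGGCG on either strand, which stands in capitals at -28 and 8 in chr17:40287629-40287908 (RefSeq, GRCh38.p14, plus strand).
CDC6: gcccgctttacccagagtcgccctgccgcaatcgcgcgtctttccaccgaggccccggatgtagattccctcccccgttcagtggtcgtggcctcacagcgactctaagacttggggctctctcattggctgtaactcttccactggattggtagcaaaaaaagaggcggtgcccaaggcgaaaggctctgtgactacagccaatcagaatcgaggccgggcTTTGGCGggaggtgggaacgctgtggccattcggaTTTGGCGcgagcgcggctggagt
A match to this core or to its other common form, TTTCGCG, was found in windows of 3 of 39 fallen genes, CDC6, HSPA5 and ZNF367, and of 2 of 25 risen genes, beside 5.2% of tested genes.

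None of 20 genes of deoxynucleotide synthesis was called (median -0.15, with -0.06 without untreated array 1, and -0.28 and 2 falls without untreated array 2), and RRM2, a ribonucleotide reductase subunit, differed by -0.65 ± 0.14 (adjusted p = 0.0845). In homologous recombination and checkpoint genes 0 of 29 rose and 1 fell (median -0.18, and -0.05 without untreated array 1). FAM111B (cluster 3331903), a protease that peaks in S phase, read 10.16, 9.70 and 9.95 untreated and 8.85, 8.79 and 8.94 at 8 h, without overlap. FAM111B fell by 1.07 ± 0.15 (adjusted p = 0.0257), and the call was lost without untreated array 3, any 8 h array or 24 h array 2, while 3 members were called without untreated array 2. ZNF367, a zinc finger gene of no list, fell by 0.53 ± 0.06 (adjusted p = 0.0167). None of 47 mitosis genes was called, their median was 0.03 (-0.08 without untreated array 2), and 1 was apart upward and 2 downward. The mitotic kinase PLK1 read 11.73, 11.70 and 11.54 and then 11.75, 11.55 and 11.75, with overlapping groups (difference 0.02 ± 0.10, adjusted p = 0.917), and AURKB differed by -0.26 ± 0.09 (adjusted p = 0.213). Of 32 replication histone genes none was called, with a median of -0.09 that was 0.01 without untreated array 3, -0.22 without untreated array 2, and -0.15 and -0.04 without 8 h arrays 1 and 3. Whether the S-phase lists differ from the mitosis list was not tested.

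**Figure D4:**
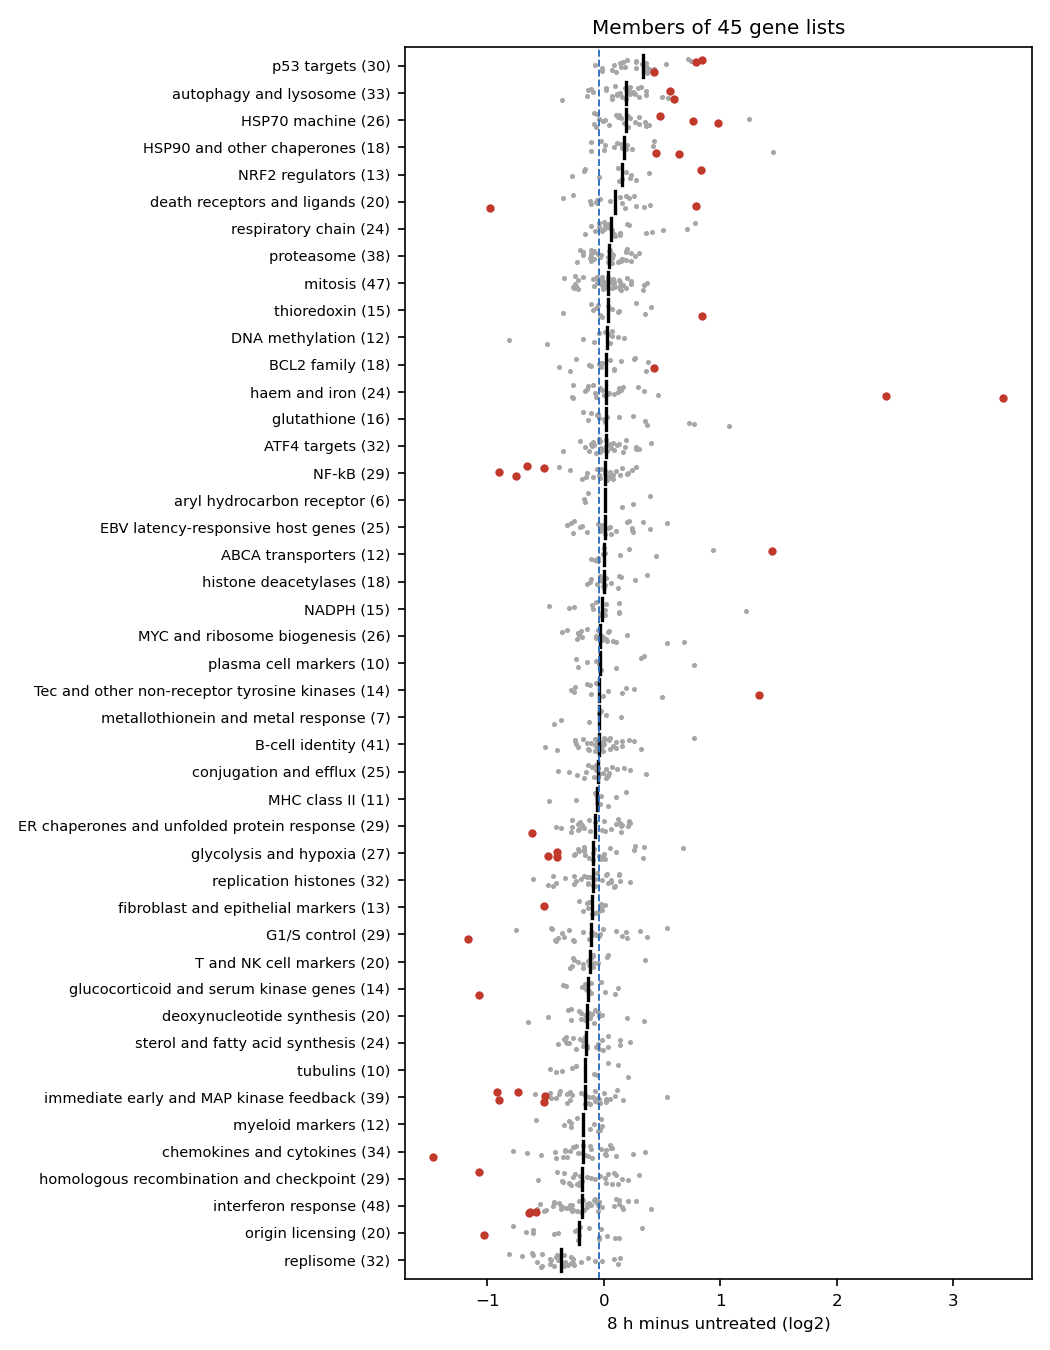
Difference between 8 h and untreated (log2, horizontal axis) of the measured members of 45 gene lists (vertical axis, number of measured members in brackets), ordered by median. Red points are called genes, grey points the others, black bars the list medians and the dashed line the median of all 14232 named genes (-0.04). The p53 list lies highest (0.33) and the replisome lowest (-0.37), with no called gene in the replisome, while the 2 called genes of the haem and iron list stand far from a list median of 0.02.

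Of 48 interferon-stimulated genes in the list 3 fell, 0 rose and 45 did not pass. The median was -0.19 (-0.29 without untreated array 2), and 17 members (35.4%, beside 10.3% of all named genes) were apart downward against 2 upward. The 3 are the OAS genes, which sense double-stranded RNA and make the 2-5A messenger of RNase L. OAS1 (cluster 3432438) read 9.30, 9.27 and 9.28 untreated and 8.63, 8.48 and 8.81 at 8 h and fell by 0.64 ± 0.08 (adjusted p = 0.0193). OAS2 read 11.08, 10.90 and 10.93 and then 10.40, 10.12 and 10.49 and fell by 0.63 ± 0.10 (adjusted p = 0.0424). OAS3 read 8.75, 8.74 and 8.86 and then 8.24, 8.11 and 8.26 and fell by 0.58 ± 0.07 (adjusted p = 0.0178). No treated value of any of them reached an untreated value. The 3 genes are neighbours in RefSeq, in the order OAS1, OAS3, OAS2, and similar sequence could let probes read more than 1 of them, which was not tested. Of the 3 calls, 2 were left without 8 h array 2 or 24 h array 1, 1 without 8 h array 3 or 24 h array 3, and 0 without untreated array 3, 8 h array 1 or 24 h array 2, while the list held 10 falls without untreated array 2. DHX58, the RNA sensor LGP2, which was in no list, fell by 0.39 ± 0.06 (adjusted p = 0.0375), a call that passed in 2 of the 9 fits without 1 array. IFITM1, an antiviral membrane protein, read 12.28, 12.26 and 12.28 and then 11.97, 11.96 and 12.04, a small difference of -0.28 ± 0.05 between tight groups that did not pass (adjusted p = 0.06). IFI35 differed by -0.50 ± 0.09 and the antiviral GTPase MX1 by -0.51 ± 0.12 (adjusted p = 0.0662 and 0.105). The window of OAS3 is shown for its cores of the interferon-stimulated response element, GAAA with any 2 bases before another GAAA, on either strand, in capitals at -143 and -12 of chr12:112938224-112938503 (RefSeq, GRCh38.p14, plus strand).
OAS3: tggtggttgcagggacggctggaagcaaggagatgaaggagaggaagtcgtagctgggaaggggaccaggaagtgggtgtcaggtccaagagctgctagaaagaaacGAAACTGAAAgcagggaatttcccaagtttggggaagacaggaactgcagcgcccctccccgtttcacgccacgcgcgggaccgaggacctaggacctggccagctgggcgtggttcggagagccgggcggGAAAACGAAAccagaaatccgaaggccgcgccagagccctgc
This core was found in windows of 4 of 39 fallen genes (OAS3, GNG2, SGK1 and TNFSF10) and 3 of 25 risen genes, beside 4.22% of tested genes.

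Of 39 immediate early and feedback genes, which answer growth factor and MAP kinase signals, 5 fell, 0 rose and 34 did not pass (median -0.16). The groups were apart downward in 16 (41%, beside 10.3% of all named genes) and upward in 3 (7.69%, beside 6.58%). IER3 (cluster 2948630), an early response gene that restrains apoptosis and is shared with the NF-kB list, read 11.65, 11.66 and 11.85 untreated and 10.82, 10.86 and 10.76 at 8 h. IER3 fell by 0.90 ± 0.07, or 1.87-fold (adjusted p = 0.00444), and passed without any 1 of the 9 arrays. ETV5 and ETV4 are ETS factors transcribed under ERK signalling. ETV5 read 9.73, 9.19 and 9.70 and then 8.63, 8.71 and 8.53 and fell by 0.92 ± 0.14 (adjusted p = 0.0367). ETV4 read 7.72, 7.91 and 7.83 and then 7.13, 7.04 and 7.09 and fell by 0.74 ± 0.07 (adjusted p = 0.0066). DUSP4, a phosphatase that switches MAP kinases off, went from 9.43, 9.39 and 9.47 to 8.99, 8.82 and 8.95, a fall of 0.51 ± 0.07 (adjusted p = 0.023). EGR1, a zinc finger factor of the serum response, read 9.78, 9.61 and 9.90 and then 9.25, 9.31 and 9.18 and fell by 0.51 ± 0.08 (adjusted p = 0.0478). None of the 5 genes overlapped between groups. Of the 5 calls, 3 were left without 24 h array 1, 2 without any 1 of the 8 h arrays or without 24 h array 2 or 3, and 1, IER3, without untreated array 3. Without untreated array 1 the list held 8 falls. The window of EGR1 is shown because it holds a pair of serum response element cores, CCATAT with any 2 bases before GG, on either strand, in capitals at -105 and -83 of chr5:138465229-138465508 (RefSeq, GRCh38.p14, plus strand).
EGR1: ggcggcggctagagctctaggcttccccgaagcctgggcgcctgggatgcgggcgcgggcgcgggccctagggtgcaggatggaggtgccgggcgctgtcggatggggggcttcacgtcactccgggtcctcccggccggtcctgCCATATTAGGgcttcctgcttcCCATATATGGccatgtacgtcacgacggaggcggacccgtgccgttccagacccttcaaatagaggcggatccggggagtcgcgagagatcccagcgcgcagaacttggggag
EGR1 and ASB2 were the 2 of 39 fallen genes with this core, 0 of 25 risen genes had it, and 0.483% of tested genes did. SGK1 (cluster 2975014), a kinase induced by serum and glucocorticoids, read 8.37, 7.80 and 8.43 untreated and 7.03, 7.34 and 7.0 at 8 h. The groups did not overlap and SGK1 fell by 1.07 ± 0.17 (adjusted p = 0.0459), a call lost without untreated array 3 or any 1 of the treated arrays. It was the 1 called gene of 14 in the glucocorticoid list (median -0.13), where TSC22D3, the classic glucocorticoid target GILZ, differed by 0.09 ± 0.05 (adjusted p = 0.429).

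The NF-kB list held 4 falls and 0 rises among 29 members, with a median of 0.01 (-0.05 without untreated array 2). Besides IER3 the members were TNFAIP2, a TNF-induced protein of membrane protrusions, PLAUR, the urokinase receptor, and IKBKE, a kinase of innate immune signalling. TNFAIP2 read 9.43, 9.36 and 9.45 untreated and 8.69, 8.53 and 8.75 at 8 h and fell by 0.75 ± 0.08 (adjusted p = 0.0108). PLAUR read 8.78, 8.68 and 8.76 and then 8.12, 7.93 and 8.19 and fell by 0.66 ± 0.08 (adjusted p = 0.0167). IKBKE read 9.48, 9.27 and 9.53 and then 8.96, 8.94 and 8.83 and fell by 0.52 ± 0.08 (adjusted p = 0.0411). All 3 were without overlap. Of the 4 calls, 3 were left without 8 h array 2 or 3 or any 24 h array, and 1 without untreated array 3 or 8 h array 1. The inhibitor NFKBIA read 12.76, 12.75 and 12.78 and then 12.70, 12.47 and 12.64, without overlap, a difference of -0.16 ± 0.07 that did not pass (adjusted p = 0.337). Whether NF-kB activity changed was not tested.

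Chemokine and cytokine genes had a median of -0.18, with 1 of 34 lower and 0 higher. The groups were apart downward in 12 (35.3%, beside 10.3% of all named genes) and upward in 1 (2.94%, beside 6.58%). CCL20 (cluster 2530713), the ligand of CCR6, gave the largest fall among named genes. It read 9.59, 8.88 and 9.76 untreated and 8.01, 7.96 and 7.87 at 8 h, so the treated arrays were tight while untreated array 2 lay below the other controls. CCL20 fell by 1.46 ± 0.21, or 2.76-fold (adjusted p = 0.0314), and the call was lost without untreated array 3 or any 1 of the treated arrays. The list held 4 falls without untreated array 1 and 3 without untreated array 2. CXCR3, a receptor of interferon-induced chemokines, read 8.22, 8.56 and 8.54 and then 7.91, 7.75 and 7.68 and just missed the threshold (difference -0.66 ± 0.11, adjusted p = 0.0503). CCL22 and EBI3, both strongly expressed by virus-transformed B cells, differed by -0.31 ± 0.06 and -0.26 ± 0.06 (adjusted p = 0.057 and 0.095). IL4R differed by -0.33 ± 0.06 (adjusted p = 0.057).

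**Figure D5:**
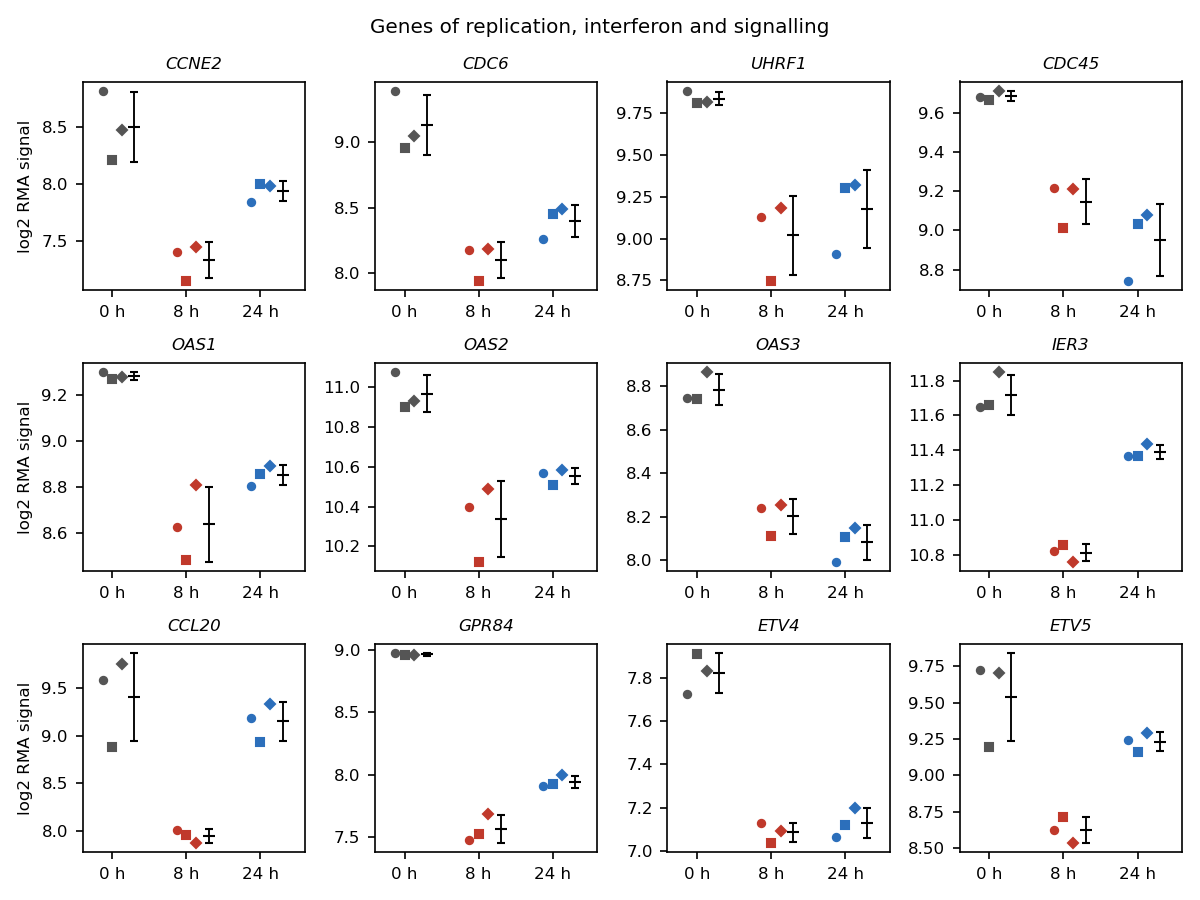
Log2 RMA signal (vertical axes, scaled per gene) of 12 genes of replication, interferon response and signalling at 0 h (grey), 8 h (red) and 24 h (blue); circles, squares and diamonds are replicates 1, 2 and 3, and the bars the mean ± SD of 3 arrays. In each gene the 3 arrays at 8 h lie below the 3 untreated arrays; UHRF1 and CDC45 were not called (adjusted p = 0.0568 and 0.0634).

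The myeloid markers were read for cells other than B cells, and none of 12 was called (beside 0.646% of all named genes). The groups were apart downward in 4 of them (33.3%, beside 10.3% of all named genes) and upward in 0 (beside 6.58%). Their mean lay at 7.06 to 7.22 on the untreated arrays and 6.94 to 6.99 at 8 h, and the median was -0.18 (-0.11 without untreated array 2). Downward shares were similar in the T and NK cell list (6 of 20, 30%) and the fibroblast and epithelial list (4 of 13, 30.8%). Upward, 1 and 0 members of those lists were apart. Of the myeloid markers, LYZ, a defining one, read 4.86, 5.16 and 5.11 and then 4.61, 4.67 and 4.80, at a dim signal. CSF1R read 7.53, 7.45 and 7.55 and then 7.28, 7.28 and 7.13. The smallest differences of the myeloid list were -0.01 for CSF3R and -0.02 for AIF1. GPR84, CD93, ALOX5 and RNASE6, called genes that myeloid cells are known to express, chosen here after their values were seen, fell, and the part of the markers in those falls was not tested. GPR84 (cluster 3456688), a receptor of medium-chain fatty acids, read 8.98, 8.96 and 8.96 untreated and 7.48, 7.52 and 7.69 at 8 h, with untreated arrays within 0.02 of each other. GPR84 fell by 1.40 ± 0.07, or 2.65-fold (adjusted p = 0.000196), and passed without any 1 of the 9 arrays. CD93, a C-type lectin-like receptor, fell by 0.66 ± 0.09 (adjusted p = 0.0201). ALOX5, the lipoxygenase of leukotriene synthesis, fell by 0.50 ± 0.06 (adjusted p = 0.0169). RNASE6, an antimicrobial ribonuclease, fell by 0.59 ± 0.09 (adjusted p = 0.0421). Of the 9 fits without 1 array, CD93 passed in 5, ALOX5 in 6 and RNASE6 in 2. THY1, in the fibroblast and epithelial list (median -0.10, and -0.02 without untreated array 2), read 7.46, 7.47 and 7.54 and then 7.01, 7.05 and 6.88 and fell by 0.51 ± 0.07 (adjusted p = 0.0191), the 1 called gene of 13. The THY1 call was lost without untreated array 3, 8 h array 1 or 3, or 24 h array 2 or 3.

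B-cell identity genes gave no call among 41 members (median -0.04). Of them 6 (14.6%) were apart upward and 8 (19.5%) downward, beside 6.58% and 10.3% of all named genes. PAX5 read 10.97, 11.11 and 10.98 at 8 h, overlapping its untreated values (difference -0.01 ± 0.07, adjusted p = 0.97). TNFRSF17, the plasma cell receptor BCMA, read 8.86, 8.39 and 8.63 and then 9.38, 9.19 and 9.65 and did not pass (difference 0.78 ± 0.14, adjusted p = 0.0618), and IRF4 differed by 0.32 ± 0.09 (adjusted p = 0.145). Plasma cell markers gave 0 calls of 10. None was called among 25 host genes of viral latency or 11 measured genes of class II presentation (of 17 listed). The medians of these lists were -0.03, 0.01 and -0.06. HLA-DPB2, a class II locus in no list, fell by 0.66 ± 0.10 (adjusted p = 0.0341) and passed in 3 of the 9 fits without 1 array. Among 14 non-receptor tyrosine kinases TXK (cluster 2768354), a Tec family kinase known from T cells, was the 1 called gene. TXK read 7.31, 6.73 and 6.99 untreated and 8.40, 8.34 and 8.30 at 8 h and rose by 1.33 ± 0.15, or 2.52-fold (adjusted p = 0.0139). Its groups lay more than 0.9 apart, and the call was lost without untreated array 3 or 8 h array 1 or 3. T and NK cell markers had a median of -0.12 (-0.18 and -0.06 without untreated arrays 1 and 2), with 1 of 20 apart upward and 6 downward.

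Of 27 glycolysis and hypoxia genes 3 fell and 0 rose (median -0.09), beside 0.436% of all named genes called lower and 0.211% called higher. PFKFB3, which makes the main activator of phosphofructokinase, read 9.70, 9.63 and 9.72 untreated and 9.23, 9.16 and 9.22 at 8 h and fell by 0.48 ± 0.06 (adjusted p = 0.016). ENO2, an enolase, read 9.70, 9.56 and 9.62 and then 9.27, 9.17 and 9.23 and fell by 0.41 ± 0.06 (adjusted p = 0.039). PFKP, the platelet phosphofructokinase, read 10.49, 10.43 and 10.50 and then 10.13, 9.96 and 10.14 and fell by 0.40 ± 0.07 (adjusted p = 0.0486). None of the 3 overlapped between groups; 1 call was left without 8 h array 2 or any 24 h array, and 0 without untreated array 3 or 8 h array 1 or 3. EPAS1, the oxygen-regulated factor HIF2A, which was in no list, fell by 0.36 ± 0.06 (adjusted p = 0.0375) and passed in 2 of the 9 fits without 1 array. GATM (cluster 3622386), the first enzyme of creatine synthesis, read 10.41, 10.21 and 10.30 and then 9.48, 9.06 and 9.40 and fell by 1.00 ± 0.11 (adjusted p = 0.0139), passing in 7 of the 9 fits without 1 array. ALDH1B1, a mitochondrial aldehyde dehydrogenase, fell by 0.67 ± 0.06 (adjusted p = 0.0066).

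None of 24 sterol and fatty acid genes was called (median -0.16), though 8 (33.3%, beside 10.3% of all named genes) were apart downward and 0 (beside 6.58%) upward. FADS1, a fatty acid desaturase, read 10.58, 10.51 and 10.51 and then 10.18, 10.20 and 10.24 and just missed the threshold (difference -0.33 ± 0.05, adjusted p = 0.0503), and DHCR7, the last enzyme of cholesterol synthesis, differed by -0.40 ± 0.08 (adjusted p = 0.0671). The respiratory chain gave 0 calls of 24 (median 0.06, with 0.10 and 0.02 without untreated arrays 1 and 2) and MYC and ribosome biogenesis 0 of 26 (median -0.03, and -0.14 without untreated array 2). In the latter MXD1, a MAX partner that opposes MYC, read 9.15, 8.97 and 9.20 and then 9.92, 9.66 and 9.79 (difference 0.69 ± 0.12, adjusted p = 0.0508).

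Other proposed targets of sulforaphane were measured too. None of 18 histone deacetylase and sirtuin genes was called, with a median of 0.00, 0 apart upward and 1 downward. Among 12 DNA methylation genes 0 were called (median 0.02, and -0.03 without untreated array 2). Of them 4 (33.3%, beside 10.3% of all named genes) were apart downward and 0 upward. DNMT1, the maintenance methyltransferase, read 11.05, 10.92 and 11.01 untreated and 10.57, 10.35 and 10.61 at 8 h (difference -0.49 ± 0.09, adjusted p = 0.06). Tubulins gave 0 calls of 10 with a median of -0.16 and 5 apart downward (50%, beside 10.3% of all named genes). TUBB6 differed by -0.46 ± 0.10 (adjusted p = 0.0804). Of 6 aryl hydrocarbon receptor genes none was called; CYP1A1, its most sensitive target, differed by -0.17 ± 0.09 (adjusted p = 0.415). These values concern transcript levels and not the activity of the enzymes.

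Of the 92 called genes 54 belonged to no list. The largest rise among the ABCA lipid transporters was ABCA9 (cluster 3768703), at 6.74, 6.06 and 6.23 untreated and 7.91, 7.57 and 7.87 at 8 h, a rise of 1.44 ± 0.17 or 2.72-fold (adjusted p = 0.0167) and the 1 call of 12. It was lost without untreated array 3 or 8 h array 1 or 3, and 3 transporters were called without untreated array 1. ABCA10, a close relative, differed by 0.94 ± 0.18 (adjusted p = 0.0671). Among the genes in no list, TEX12, a protein of the meiotic synaptonemal complex, read 3.36, 3.37 and 3.30 and then 4.32, 4.25 and 4.05. TEX12 rose by 0.86 ± 0.08 (adjusted p = 0.0066) at a dim signal. BCO2, a mitochondrial enzyme that cleaves carotenoids and the gene next to TEX12 in RefSeq, read 6.48, 6.34 and 6.18 and then 7.13, 6.85 and 7.17 and rose by 0.72 ± 0.11 (adjusted p = 0.0341). CFAP70, a ciliary protein, read 6.44, 6.39 and 6.40 and then 7.18, 7.02 and 7.36 and rose by 0.78 ± 0.09 (adjusted p = 0.0167). COL24A1, a fibrillar collagen, read 7.17, 7.13 and 7.12 and then 7.91, 7.83 and 7.83 and rose by 0.71 ± 0.06 (adjusted p = 0.005). All of these were without overlap, and COL24A1 passed without any 1 of the 9 arrays. Smaller rises included SEC61A2, a translocon subunit (0.62 ± 0.09), ING4, a chromatin reader (0.54 ± 0.08), HINFP, a factor of histone gene transcription (0.44 ± 0.06), B4GALT5, which makes lactosylceramide (0.34 ± 0.05), and MAU2, a cohesin loader (0.33 ± 0.05), with adjusted p = 0.0367, 0.0375, 0.0211, 0.0336 and 0.0446.

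Among falls outside the lists, FSTL3 (cluster 3815097), a secreted inhibitor of activins, read 10.08, 10.24 and 10.29 untreated and 9.10, 9.00 and 9.19 at 8 h and fell by 1.10 ± 0.13, or 2.15-fold (adjusted p = 0.0167). CYRIA, which restrains the actin regulator RAC1, read 9.20, 8.66 and 9.20 and then 8.18, 8.10 and 7.89 and fell by 0.97 ± 0.16 (adjusted p = 0.0482). RIN2, an exchange factor of the endosomal GTPase RAB5, read 8.71, 8.51 and 8.62 and then 7.90, 7.56 and 7.82 and fell by 0.85 ± 0.11 (adjusted p = 0.0179). GJB2, the gap junction protein connexin 26, read 7.73, 7.74 and 7.93 and then 6.94, 6.79 and 7.27 and fell by 0.80 ± 0.13 (adjusted p = 0.0429). In none of these 4 did the groups overlap. SEPTIN3, a septin known from neurons, read 7.86, 7.91 and 7.87 and then 7.14, 7.12 and 7.19, with both groups tight, and fell by 0.73 ± 0.05 (adjusted p = 0.00181). Its 3 arrays at 24 h shared the value 7.50. In the limma fit of only the 6 arrays compared, the adjusted p of SEPTIN3 was 0.0466. GNG2, a G protein subunit, fell by 0.60 ± 0.05 (adjusted p = 0.0066), and both it and SEPTIN3 passed without any 1 of the 9 arrays. ARRB1, an arrestin of G protein-coupled receptors, fell by 0.53 ± 0.06, GPR65, a proton-sensing receptor, by 0.53 ± 0.08, and CYTH4, an exchange factor of ARF GTPases, by 0.65 ± 0.08 (adjusted p = 0.0139, 0.0436 and 0.017). Actin-linked genes among the falls were LIMA1, which cross-links actin filaments (-0.58 ± 0.09), and MYO1C, a membrane myosin (-0.58 ± 0.09), with adjusted p = 0.0375 and 0.0436. ZBTB32, a repressor in activated lymphocytes, fell by 0.45 ± 0.05 (adjusted p = 0.0167), and TNFRSF11B, the decoy receptor osteoprotegerin, by 0.59 ± 0.07 (adjusted p = 0.017). ASB2, a ubiquitin ligase adaptor, fell by 0.67 ± 0.06 (adjusted p = 0.0066), YWHAH, a 14-3-3 protein, by 0.47 ± 0.06 (adjusted p = 0.0211) and REC8, the meiotic cohesin subunit, by 0.49 ± 0.07 (adjusted p = 0.0343). Further falls included MCAM, an adhesion molecule (-0.54 ± 0.08), PTP4A3, a phosphatase (-0.54 ± 0.09), SV2B, a synaptic vesicle protein (-0.50 ± 0.07), GRIN2A, a glutamate receptor subunit (-0.44 ± 0.06), KCNMB1, a potassium channel subunit (-0.46 ± 0.08), RASSF2, a RAS-binding protein (-0.38 ± 0.06), and EXOSC2, an RNA exosome subunit (-0.33 ± 0.05). Of the 54 calls in no list, 54, 51 and 5 were left without untreated arrays 1, 2 and 3, 9, 21 and 10 without 8 h arrays 1, 2 and 3, and 25, 17 and 20 without 24 h arrays 1, 2 and 3.

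Clusters without a gene symbol held more rises than falls. Of 5171 such clusters 18 were called higher and 2 lower, 16.5% were apart upward and 3.5% downward, and the median was 0.14 (0.08 without untreated array 2), against -0.04 for clusters with a single symbol. A run of 120 unnamed clusters with neighbouring numbers, picked out after its values were seen, held 8 of the calls, all higher, and 64 of its members were apart upward and 1 downward. Its median was 0.54 (0.42 without untreated array 2). What these clusters measure is not given in the sources used here. Of 2408 clusters listed for several genes 11 were called higher and 8 lower, with differences of -0.85 to 1.51, and no gene is named from them. Among 10296 pairs of measured neighbours in RefSeq, 5 had both genes called, in the same direction each time: TEX12 with BCO2, TXNRD1 with EID3, OAS1 with OAS3, OAS3 with OAS2, and BAX with FTL.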

How the data were processed

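RNA of each of the 9 cultures went onto its own Human Exon 1.0 ST array (Affymetrix). The authors used Expression Console for sketch-quantile normalization and gene-level RMA of core probes, per the labels and the design text, and deposited log2 signals for 22011 transcript clusters. The program's version, the annotation release and the build were not given in the sources used here. These values were used as deposited. Arrays give signal and not counts, so their number limits the precision.

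Groups came from the sample titles. limma 3.58.1 in R 4.3.3 fitted 1 mean per group over all 9 arrays, with eBayes, two-sided tests and Benjamini-Hochberg adjustment over all clusters; the 24 h arrays entered through the shared spread. The annotation table gave 14432 clusters a single symbol, 2408 several and 5171 none; the brightest cluster stood for each of 14232 genes, and 197 symbols had more than 1. In 893 clusters the 3 arrays of a group were equal, and 3 of these were called (TXNRD1, BAX and SEPTIN3).

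Every called gene could be named, with values per array for the 15 largest rises and falls and for called members of the 45 gene lists, up to 5 members with the smallest p in lists with few calls, and a fixed panel of known stress, cell-cycle and B-cell genes; MS4A1 and CD79A were added to it as B-cell markers, and some genes of the panel are not reported here. The comparison, its lists and these genes were chosen with earlier results of these data known, so lists are described by counts and medians and have no test of their own. Groups are called apart, or without overlap, where all 3 arrays of a group exceed all 3 of the other. Motifs were searched in 35116 RefSeq promoter windows (GRCh38.p14); a gene counted as having a motif if any of its windows did. The workflow was tested on simulated data.

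Alternatives were a fit of the 6 arrays compared, a replicate block, leaving out the dimmest 25% of clusters, quantile normalization, centring on the median, trended and robust eBayes, a threshold of 0.01, averaging the clusters of a symbol, and leaving out each array. Array weights fitted gene by gene and a fit of single-symbol clusters were added after seeing the data.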

Additional observations from a re-analysis of the deposited data

Results flagged for a closer look

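Of the 92 genes called at 8 h, 11 also differed between 24 h and 8 h of sulforaphane at an adjusted p below 0.05 in the same limma fit. The 8 h arrays enter both this difference and the call at 8 h, with opposite sign, so that the direction is in part set by the choice of called genes. HMOX1 was lower at 24 h than at 8 h by -0.69 ± 0.09 (moderated SE, n = 3 arrays per group, adjusted p = 0.0258). The other genes lower at 24 h were chaperone genes: HSPH1 differed by -0.75 (adjusted p = 0.0246), HSP90AA1 by -0.64 (adjusted p = 0.0387), BAG3 by -0.43 (adjusted p = 0.049) and STIP1 by -0.59 (adjusted p = 0.00719). Their differences from untreated at 24 h were 2.74 for HMOX1, 0.23 for HSPH1, 0.00 for HSP90AA1, 0.06 for BAG3 and -0.15 for STIP1.

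Genes that had fallen at 8 h and were higher at 24 h than at 8 h were HSPA5 by 0.62 (adjusted p = 0.0246), GATM by 0.80 (adjusted p = 0.0387), IER3 by 0.58 (adjusted p = 0.0246), CYTH4 by 0.56 (adjusted p = 0.0416), ALDH1B1 by 0.43 (adjusted p = 0.0385) and SEPTIN3 by 0.35 (adjusted p = 0.0401). HSPA5 differed from untreated by 0.00 at 24 h and GATM by -0.20.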

How the results depend on the processing

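All 92 called genes kept their direction under every alternative run, but many of these runs could not change it. Differences were those of the main fit with the 6 arrays compared, the replicate block and trended, robust eBayes. They also stayed the same without any of the 24 h arrays. Leaving out an untreated or 8 h array cannot reverse a difference between groups without overlap. In those runs the kept direction is therefore no sign of stability. HMOX1, FTL, SEPTIN3 and GPR84 passed in all 18 alternatives at the 0.05 threshold. The number of calls moved with most choices. Against 131 clusters (59 higher, 72 lower), array weights fitted gene by gene gave 1703 (948 and 755), quantile normalization 390 (183 and 207), leaving out the dimmest 25% 302 (151 and 151), centring each array on its median 288 (139 and 149), and single-symbol clusters alone 215 (81 and 134). A threshold of 0.01 gave 19 (12 and 7), and the 6 arrays compared alone gave 9 (6 and 3), with 5 of the 92 genes left. Averaging the clusters of a symbol gave 140 and trended, robust eBayes 123. Leaving out each array in turn gave 9 to 654 clusters, 4 to 476 higher and 5 to 215 lower. With the replicate number as a block, 85 were called (51 and 34), with 44 of the 92 genes left. Deviations of same-numbered untreated and 8 h arrays correlated at 0.03, 0.10 and -0.14. In each group replicate 2 had the lowest mean signal (7.97 untreated, 8.05 at 8 h and 8.09 at 24 h). Whether the numbers pair the cultures is not settled by these values. Array weights estimated over all clusters did not converge and were not used. The cause of these changes was not tested. Untreated arrays had a median SD of 0.15, against 0.0912 at 8 h, and 3 arrays per group limit what a single gene can show.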
